A study of Mus musculus with 12 samples.

Results

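Transthyretin and 8 other markers of the choroid plexus, Ttr, Kl, Folr1, Clic6, Sostdc1, Aqp1, Slc4a5, F5 and Otx2, were followed in the hypothalamus of 12 mice. The members were all the probes whose gene symbol was one of these names, which gave 9 genes on 15 probes among 27308 gene symbols on 56605 probes. Ttr was chosen by its measured values in these arrays, the difference between KE and exercised WT, and the other genes were added as markers of the same tissue. The levels are log2 signals of single-color Agilent arrays after quantile normalization.

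All mice were males of the C57BL/6 background, labelled as 6 to 7 weeks old, with 3 mice in each of 4 groups. The authors give 6 to 7 weeks as the age when swimming began. Training then ran for several weeks, so the mice were older when the tissue was taken. The WT group held wild-type littermates without training, and the KO group held littermates homozygous for a deletion in Asmt (acetylserotonin O-methyltransferase), the gene of the last enzyme of melatonin synthesis. The exercised WT group and the KE group were wild-type and Asmt-knockout mice given a swimming program. Every knockout animal traced back to founders made by injecting Cas9 mRNA with a guide RNA into zygotes and then backcrossed, so the deletion was carried in all tissues and from birth. The authors state that C57BL/6J mice carry Asmt mutations, with reduced enzyme activity and a lack of melatonin from birth. Wild-type here therefore need not mean full Asmt activity. None of the 12 arrays had the Asmt probe well above background (1.83 to 2.49 on the log2 scale), wild-type mice included, and so it could not check the genotype labels. Mice of a group were separate animals.

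The choroid plexus is the epithelium that hangs in the brain ventricles and secretes cerebrospinal fluid. Its cells make transthyretin, a carrier of thyroxine and, through retinol-binding protein, of retinol, in such amounts that Ttr mRNA is a customary marker of the tissue. The third ventricle runs through the hypothalamus along the midline, and its roof carries choroid plexus, so the tissue lies next to the region dissected here. In a bulk sample, fewer cells of a type and less RNA per cell cannot be told apart.

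The 12 arrays lay on 2 slides. The 3 WT arrays and KO mice 1 and 2 were on slide 1, and KO mouse 3 with all exercised WT and KE arrays was on slide 2, so slide and exercise cannot be told apart in WT against exercised WT or KE. Between 61.62% and 67.91% of the spots of an array were well above background, and no spot was saturated. Of 12 listed hypothalamic genes, 12 passed the detection filter and 11 were well above background on every array. Hcrt (hypocretin), Oxt (oxytocin) and Avp (vasopressin) were among them. The filter passed 35230 of all 56605 probes, and also 11 of 11 leptomeningeal and 9 of 9 ependymal genes on the array. Passing it therefore does not set the hypothalamus apart from neighbouring tissue. Markers of the anterior pituitary differed widely between arrays: Cga, the shared subunit of its glycoprotein hormones, ran from 1.85 to 11.51 and Pitx1 from 1.82 to 8.87 on the log2 scale. The summed signal of the 5 pituitary genes had a Pearson r of -0.256 with Ttr over the 12 arrays.

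A probe was tested if some group had it well above background in each of its 3 mice. Of the 15 probes, 9 met this, among 35230 probes tested in all. They covered 8 genes, with 2 probes for Ttr and 1 each for Kl, Folr1, Clic6, Sostdc1, Aqp1, F5 and Otx2. Neither probe of Slc4a5, a sodium bicarbonate cotransporter of the epithelium, passed, and the brighter one was well above background on 1 array only, that of exercised WT mouse 2. A second Folr1 probe, a probe for the secreted form of Kl and 2 further Otx2 probes did not pass either. The tested Kl probe lies at chr5:151796302-151796361 and the tested Otx2 probe at chr14:49277855-49277914 in the mm9 build named by the files. Exon and UTR annotation of that build was not used here.

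Ttr varied more between mice than almost any other transcript. In the WT group the brighter Ttr probe read 7.15, 8.18 and 8.90 on the log2 scale in mice 1 to 3. In the KO group it read 5.53, 9.63 and 7.81. In the exercised WT group it read 9.83, 10.79 and 8.28, and in the KE group 8.31, 7.49 and 8.37.

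KO mouse 1 was the lowest of the 12 and exercised WT mouse 2 the highest, and every pair of groups overlapped. The span between these 2 mice was 5.25 on the log2 scale, or 38.1-fold, with scanner signals of 38.1 and 1994. This range lay at the 99.97th percentile of all probes tested, whose median range was 0.52. The pooled within-group SD of Ttr was 1.31 on the log2 scale (n = 12, 4 groups), against a median of 0.137 over all probes tested. The KO group had the widest spread (7.66 ± 2.05, SD, n = 3) and the KE group the narrowest (8.06 ± 0.494, SD, n = 3). The WT mean was 8.07 ± 0.877 (SD, n = 3) and the mean of exercised WT 9.63 ± 1.26 (SD, n = 3). Ordered by their means, KO, KE and WT were neighbours that lay within each other's spread, and the exercised WT group stood highest by a gap larger than its own SD, with overlap of the mice.

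The dimmer Ttr probe gave a similar order of the mice. It read 2.62, 2.84 and 4.82 in the WT group, 1.83, 5.10 and 3.07 in the KO group, 6.05, 6.53 and 4.09 in the exercised WT group, and 4.23, 2.65 and 3.14 in the KE group. It was well above background in 3 of 3 exercised WT mice, 1 of 3 WT mice, 1 of 3 KO mice and 0 of 3 KE mice. Over the 12 arrays the 2 probes had a Pearson r of 0.934 and a Spearman rho of 0.972 (permutation p = 2e-05 for both, two-sided, the smallest that the permutations could give).

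**Figure D1:**
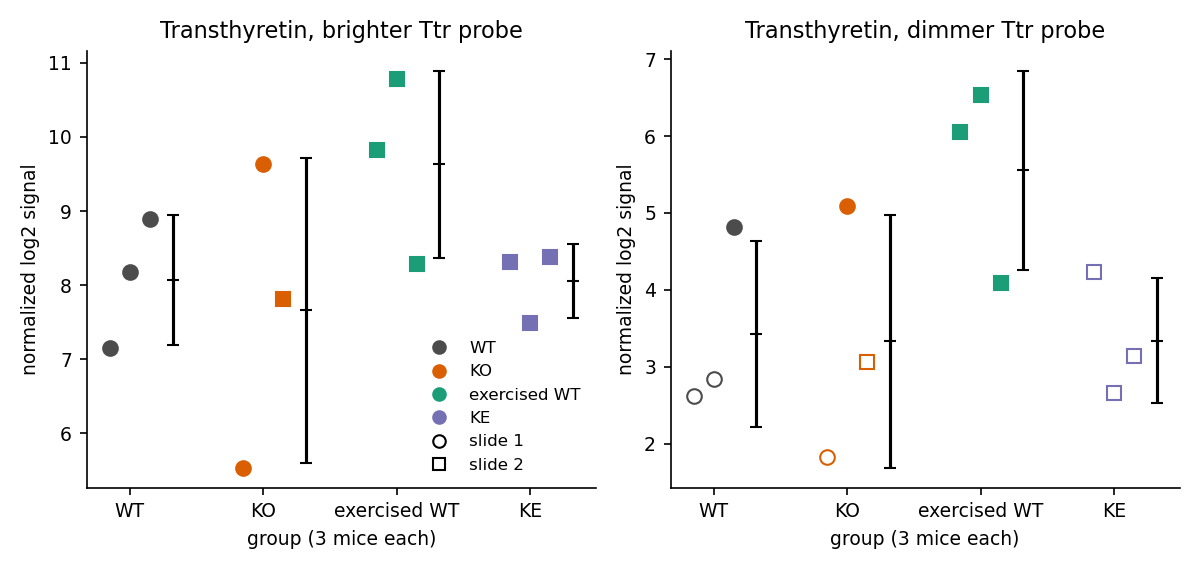
Normalized log2 signal of the 2 Ttr probes in each of the 12 mice (y axis) by group (x axis), each panel on its own scale. Circles are slide 1 and squares slide 2, open symbols are not well above background, and bars are the mean and SD of 3 mice. On the brighter probe the mice run from 5.53 (KO mouse 1) to 10.79 (exercised WT mouse 2), and the groups overlap.

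The other markers spread far less. From the lowest to the highest of the 12 mice, Kl spanned 1.33-fold, F5 1.53-fold, Clic6 1.57-fold, Sostdc1 1.79-fold, Otx2 2.14-fold, Folr1 2.21-fold and Aqp1 5.22-fold. Among all probes tested, the range of Kl was at the 38.5th percentile and that of Clic6, a chloride intracellular channel protein of secretory epithelia, at the 62.0th. Otx2 (84.6th) and Folr1 (85.9th) varied more than most probes, and Aqp1, at the 98.0th percentile, varied most among these 7. Aqp1, the water channel of the apical membrane, had a dim probe that was not well above background in WT mouse 2 and KO mouse 1. These are differences within a probe, and no probe's level was set against another's.

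**Figure D2:**
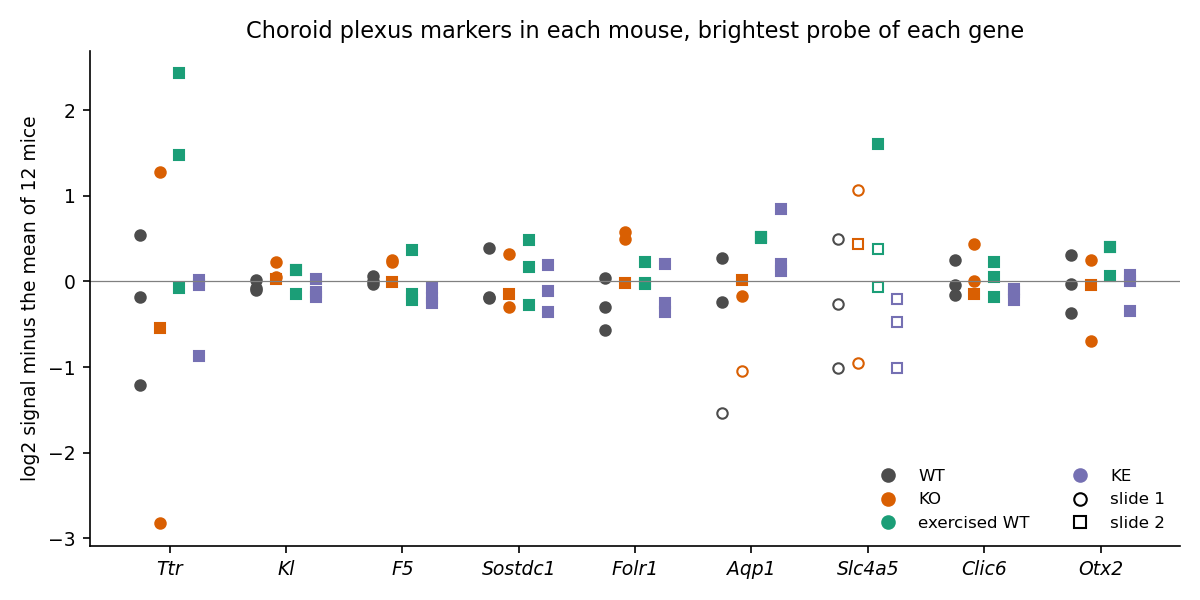
Log2 signal of the brightest probe of each of the 9 genes in each mouse, minus the mean of that probe over the 12 mice (y axis). Colors are groups, circles slide 1 and squares slide 2, and open symbols are not well above background. Ttr spans 5.25 on the log2 scale and Kl 0.42.

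Whether Ttr rose and fell with the rest of the tissue was asked mouse by mouse. Of the 7 other genes with a tested probe, 7 had a positive correlation with Ttr over the 12 arrays, with a median Pearson r of 0.419 against -0.0271 over all probes. The highest r over the 12 arrays was that of Otx2, a homeodomain transcription factor needed for choroid plexus epithelium. With group means taken out, Kl (klotho, a membrane protein of kidney and choroid plexus) came first with an r of 0.721 and Otx2 second with 0.699. Folr1, the receptor that carries folate across the epithelium, and F5 (coagulation factor V) had the lowest r over the 12 arrays.

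Otx2 read 8.39, 8.73 and 9.07 in the WT group, 8.06, 9.01 and 8.71 in the KO group, 8.82, 9.15 and 9.16 in the exercised WT group, and 8.41, 8.76 and 8.83 in the KE group. KO mouse 1 was lowest for Otx2 as it was for Ttr. Within the WT and the KO groups, the mice stood in the same order for both genes, but within the exercised WT group the mouse with the lowest Ttr had the highest Otx2. Over the 12 arrays Otx2 had a Pearson r of 0.789 with Ttr (permutation p = 0.00288, two-sided) and a Spearman rho of 0.72 (permutation p = 0.0106). The permutations ignored group and slide, and the values that led to the choice of Ttr were among those permuted. Without KO mouse 1 and exercised WT mouse 2, the arrays farthest from the median of Ttr, r was 0.521. On the 7 arrays of slide 2, r was 0.477 (exact permutation p = 0.239), so the relation did not pass a test there. With group means taken out, r was 0.699, and leaving out KO mouse 1 as well gave 0.411.

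Kl read 8.45, 8.42 and 8.54 in the WT group, 8.57, 8.75 and 8.55 in the KO group, 8.65, 8.65 and 8.37 in the exercised WT group, and 8.55, 8.33 and 8.40 in the KE group. Its highest value was that of KO mouse 2, which had the highest Ttr among the mice without training, and its lowest that of KE mouse 2. Over the 12 arrays Kl had a Pearson r of 0.491 with Ttr (permutation p = 0.105) and a Spearman rho of 0.497 (permutation p = 0.104). Without KO mouse 1 and exercised WT mouse 2, r was 0.749. On slide 2, r was 0.759 (7 arrays, exact permutation p = 0.0321). That slide holds all the KE and exercised WT values that led to the choice of Ttr, so nothing is read from this p.

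Sostdc1, a secreted antagonist of BMP and Wnt signals, had an r of 0.475 with Ttr over 12 arrays (permutation p = 0.116) and a rho of 0.531 (p = 0.079), with 0.184 on slide 2 and 0.361 without the 2 extreme arrays. Aqp1 had an r of 0.419 (permutation p = 0.182) and a rho of 0.364 (p = 0.243), which became 0.0165 without the 2 extreme arrays and so rested on them. Clic6 had an r of 0.237 (permutation p = 0.454) and a rho of 0.112 (p = 0.733), Folr1 an r of 0.115 (permutation p = 0.728) and a rho of 0.196 (p = 0.544), and F5 an r of 0.0851 (permutation p = 0.802) and a rho of -0.042 (p = 0.897). These were 7 relations, and their p-values were not adjusted over the set because the genes were chosen with earlier results known. Without the 2 extreme arrays r was 0.369 for Clic6, 0.591 for Folr1 and 0.0865 for F5, and on slide 2 it was 0.129, 0.541 and 0.618. The mean log2 signal of the 7 genes had an r of 0.701 with Ttr, with a confidence interval of 0.213 to 0.909. That interval ignores group and slide, and it includes the values that led to the choice of Ttr. This r is therefore a description. The r lay between 0.564 and 0.793 under every alternative in which it was recomputed, a range that does not give its precision. The genes were not scaled before averaging, so those with a wide spread weighed more. Aqp1, which passed the detection filter only through the exercised groups, had the largest SD of the 7 over the 12 arrays (0.686). Kl had the smallest (0.128).

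A model of the 4 group means plus Ttr took the differences between groups out, and its slopes give the log2 change of a gene for each log2 unit of Ttr among mice of the same group. The slope was positive for 7 of the 7 other genes, beside 50.3% of all probes. It was 0.177 for Otx2 (SE 0.062, 12 mice) and 0.065 for Kl (SE 0.025, 12 mice). For Sostdc1 it was 0.106 (SE 0.078), for Aqp1 0.106 (SE 0.145), for Folr1 0.056 (SE 0.069), for Clic6 0.051 (SE 0.054) and for F5 0.032 (SE 0.047). A slope of 1 would mean that a gene moved as much as Ttr, and the second Ttr probe had a slope of 0.894 (SE 0.132).

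No slope of a choroid plexus marker passed the adjusted threshold of 0.05 (0 of 7 in limma, adjusted p = 0.9999 for each, with 0% of all probes called). Otx2 and Kl, 2 of the 7, had a positive slope at an unadjusted limma p under 0.05, beside 1.71% of all probes. That count was 1 without WT mouse 3, KO mouse 1, exercised WT mouse 2 or KE mouse 2, and 0 without KO mouse 2. Without KO mouse 1 the slope of Otx2 was 0.106 and that of Kl 0.104.

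Otx2 and Kl had the highest within-group correlations with Ttr among the members, and Cox8b the highest in a longer list of choroid plexus genes described next, so the 250 bases before their starts are shown. They are the RefSeq windows of the GRCm38.p6 assembly, 5′ to 3′ on the strand of the gene, at chr5:150952357-150952606 (plus strand) for Kl, chr14:48665110-48665359 (minus strand) for Otx2 and chr7:140900447-140900696 (minus strand) for Cox8b. Capitals mark TAATCC on either strand (GGATTA on the other), the core that Otx-type homeodomains bind.
Kl: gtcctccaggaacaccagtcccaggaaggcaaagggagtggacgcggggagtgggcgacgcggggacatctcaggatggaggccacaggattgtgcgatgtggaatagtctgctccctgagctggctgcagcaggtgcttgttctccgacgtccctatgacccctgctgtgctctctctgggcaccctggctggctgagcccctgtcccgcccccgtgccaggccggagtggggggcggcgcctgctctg
Otx2: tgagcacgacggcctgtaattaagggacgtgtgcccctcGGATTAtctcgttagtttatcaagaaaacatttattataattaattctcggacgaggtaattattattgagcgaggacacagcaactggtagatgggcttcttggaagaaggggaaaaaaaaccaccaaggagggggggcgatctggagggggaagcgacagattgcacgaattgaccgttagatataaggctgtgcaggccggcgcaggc
Cox8b: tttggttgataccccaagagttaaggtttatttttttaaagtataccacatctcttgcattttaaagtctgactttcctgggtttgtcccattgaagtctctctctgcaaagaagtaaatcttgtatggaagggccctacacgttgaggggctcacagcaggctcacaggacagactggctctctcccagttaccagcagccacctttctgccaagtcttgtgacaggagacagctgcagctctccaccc
The windows of Kl and Cox8b did not hold these letters. For a gene with several windows, the one with the most matches was shown. The Otx2 window shown, the third of its 4, was picked in this way and held the letters once, beginning 211 bases before the start. The other Otx2 windows did not hold them. Of all 32851 windows of this length, 6.25% held a match, and of 8 windows from the 5 members with an entry (Kl, Aqp1, Slc4a5, F5 and Otx2), 1 did. Ttr, Folr1, Clic6 and Sostdc1 had no entry.

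Among 28 tested genes of a longer list of choroid plexus epithelium, 18 had a positive slope on Ttr within groups, beside 50.3% of all probes. For 9 the slope was positive at an unadjusted limma p under 0.05, beside 1.71% of all probes. For 0 it was negative at that level. None of the 28 passed after adjustment. The median within-group correlation with Ttr was 0.399 (Pearson r of deviations from group means, 12 mice), beside 0.309 for the 7 members and 0.0019 for all probes. Over the 12 arrays, with group means left in, the median r was only 0.0591, beside 0.419 for the members and -0.0271 for all probes. The summed signal of the list had an r of -0.0626 with Ttr. Its lowest within-group r were those of Car12 (-0.611) and Col8a1 (-0.517).

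The 9 genes were Kcne2 and Kcnj13, potassium channel genes of the epithelium, Trpv4, a cation channel, Slc13a4, a sulfate transporter, Steap1, Calml4, the homeobox gene Msx1, Cox8b and 1500015O10Rik. They were named after their values were seen. Kcne2 had a slope of 0.358 (SE 0.127), Kcnj13 of 0.246 (SE 0.093) and Slc13a4 of 0.222 (SE 0.083), each steeper than any of the 7 members. The count of 9 was 5 without KO mouse 2, when 6.08% of all probes had a positive slope at that level, and it was 9 without KO mouse 1. The 3 genes of the list with the highest signal did not follow Ttr closely in all cases: Enpp2 (autotaxin) had a within-group r of -0.0434, Prlr (prolactin receptor) of 0.588 and Spint2 of -0.427.

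Cox8b, a subunit of cytochrome c oxidase, read 5.98, 5.83 and 6.54 in the WT group, 5.71, 7.33 and 6.14 in the KO group, 6.72, 7.23 and 6.17 in the exercised WT group, and 6.00, 5.65 and 6.13 in the KE group. Its highest values were those of KO mouse 2 and exercised WT mouse 2, and its mice stood in the order of their Ttr within KO, exercised WT and KE. Its slope on Ttr was 0.386 (SE 0.0537), with a within-group r of 0.928. For 1500015O10Rik, which encodes the secreted peptide augurin, the slope was 0.166 (SE 0.0267) and the within-group r was 0.927.

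**Figure D3:**
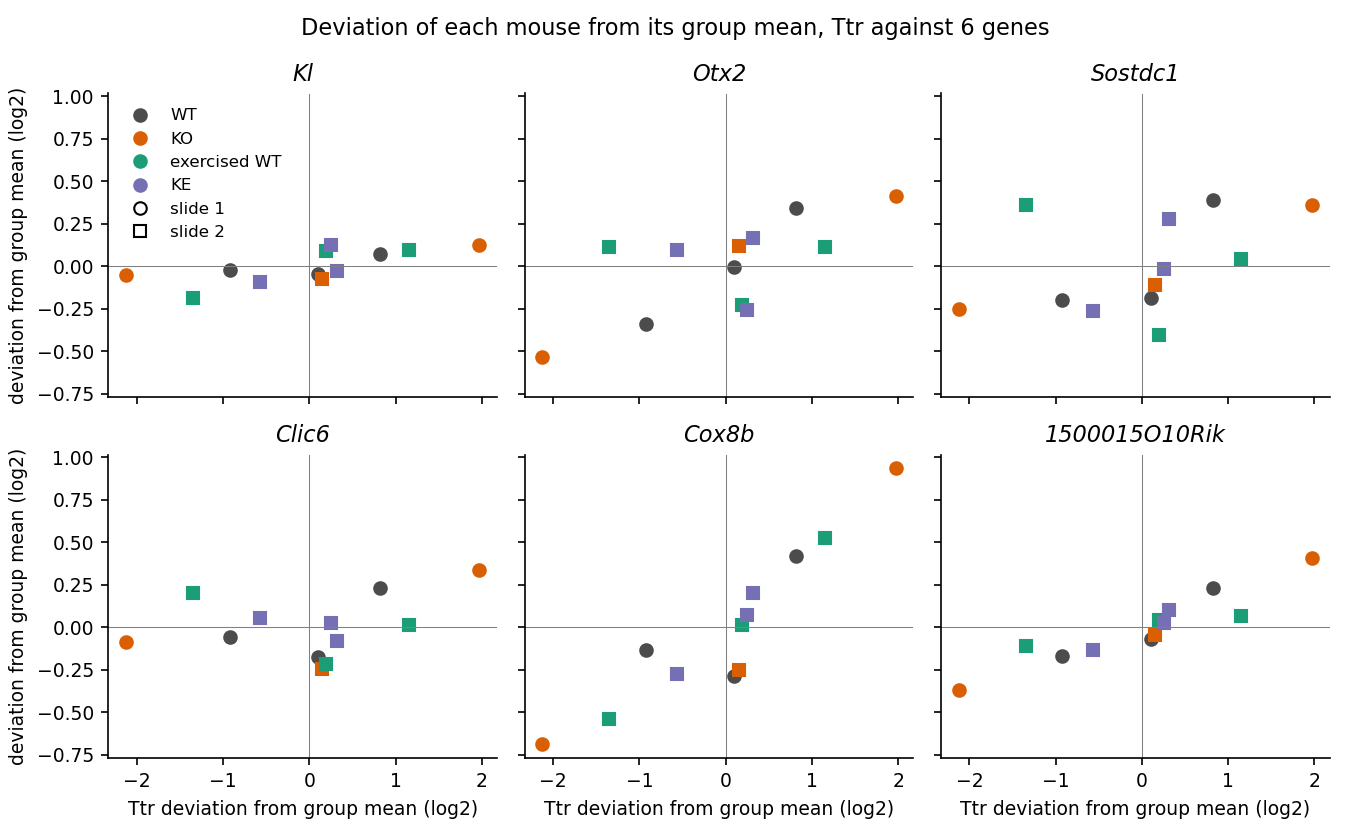
Deviation of each mouse from the mean of its group for Ttr (x axis) and for 6 genes (y axis), both in log2 signal. Colors are groups, circles slide 1 and squares slide 2. Cox8b and 1500015O10Rik line up with Ttr (within-group r of 0.928 and 0.927), and the points of Clic6 scatter (0.309).

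No gene of the lists for neighbouring tissues had a slope on Ttr that passed adjustment, and their part in the values above was not tested. Of all probes, 50.3% had a positive slope on Ttr, and 1.71% had one at an unadjusted limma p under 0.05. All 3 blood genes on the array had positive slopes at an unadjusted limma p under 0.05, namely Hba-a1 and Hbb-bt (hemoglobin chains) and Alas2 (the first enzyme of heme synthesis in red cells), with a median within-group r of 0.77. That count was 0 of 3 without KO mouse 1 and 1 of 3 without KO mouse 2. The summed blood signal ran from 16.58 to 16.93 on the log2 scale in the WT group, 16.08 to 17.08 in KO, 16.29 to 16.59 in exercised WT and 16.18 to 16.57 in KE.

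Of 11 tested genes of the leptomeninges, the membranes that cover the brain, 11 had a positive slope, beside 50.3% of all probes (median within-group r 0.515). For 2, Igf2 and Aldh1a2, the slope was positive at an unadjusted p under 0.05, beside 1.71% of all probes. The 3 brightest of the list were Dcn (decorin, within-group r 0.00625), Mgp (matrix Gla protein, 0.525) and Col1a2 (a collagen chain, 0.389). The count of 2 was 5 without WT mouse 1 or exercised WT mouse 3, 4 without WT mouse 2, 1 without KO mouse 2 and 0 without KO mouse 1. The summed leptomeningeal signal ran from 13.17 to 13.54 in the WT group, 13.03 to 14.15 in KO, 13.29 to 13.63 in exercised WT and 13.09 to 13.56 in KE. Of 9 ependymal genes, which mark the ciliated lining of the ventricle, 8 had a positive slope and 0 passed at an unadjusted p under 0.05 (median within-group r 0.378). That count was 3 without KO mouse 1, the array without which the blood and leptomeningeal counts were 0, and 1 without WT mouse 2 or KO mouse 2. The 3 brightest were Rarres2 (0.416), Cfap126 (0.369) and Dynlrb2 (0.53), Cfap126 and Dynlrb2 being genes of cilia.

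In the remaining lists the slopes were mixed or few genes could be tested. The shares of all probes were again 50.3% for a positive slope and 1.71% for one at an unadjusted p under 0.05. Of 7 genes of tanycytes, the specialized ependymal cells of the ventricle floor, 1 had a positive slope (median within-group r -0.242), and of 7 thalamic and habenular genes 2 had one (-0.147). The brightest tanycyte genes were Crym (-0.396), Lhx2 (0.00403) and Dio2, the deiodinase that makes active thyroid hormone (-0.236). The brightest of the thalamic list were Tac1 (-0.766), Rora (-0.415) and Tcf7l2 (-0.147), and Tac1 had a negative slope at an unadjusted p under 0.05. Of 12 hypothalamic neuron genes 6 had a positive slope (0.048), with Oxt alone past an unadjusted p of 0.05. Among 7 further genes of retinol and thyroid hormone carriage, the pathway in which transthyretin acts, 4 had a positive slope (median within-group r 0.0598). Slco1c1, a thyroxine transporter of the brain barriers, had a negative slope at an unadjusted p under 0.05 (-0.0529, SE 0.0202). Both pineal genes that could be tested, Aanat and Crx, had positive slopes that did not pass an unadjusted p of 0.05 (median within-group r 0.186). Of 13 ion and water transport genes, some of them in the lists above, 8 had a positive slope and 3 passed at an unadjusted p under 0.05 (Kcnj13, Kcne2 and Trpv4).

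**Figure D4:**
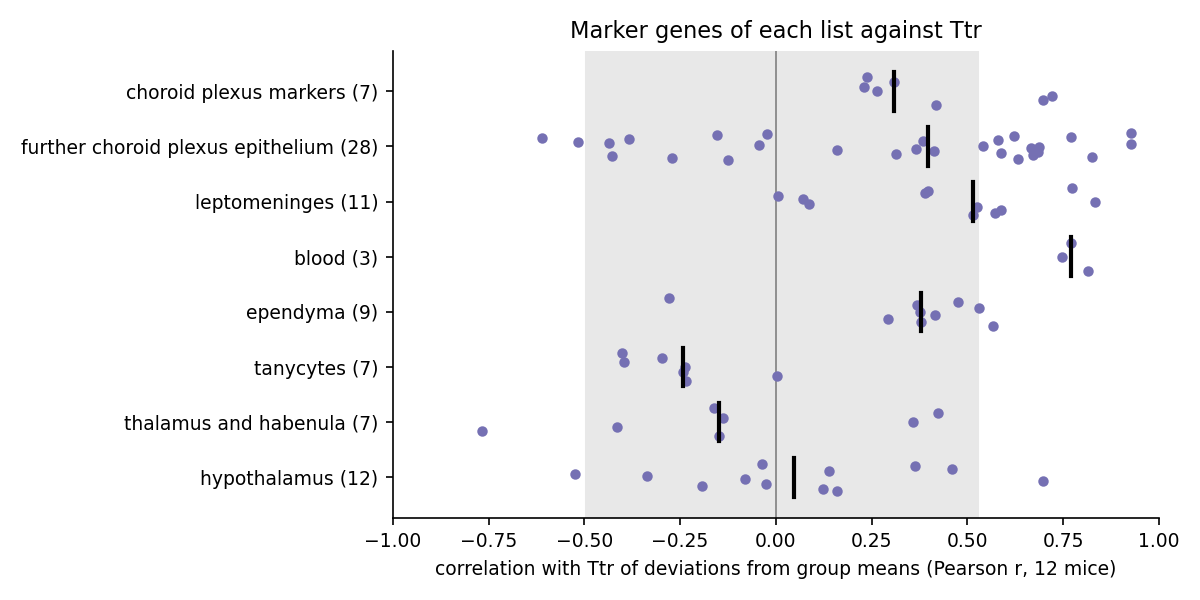
Pearson r with Ttr of the deviations from group means over 12 mice (x axis), 1 point for each tested gene, by marker list (y axis, number of genes in brackets). Thick lines are list medians, the grey band runs from the 5th to the 95th percentile of all probes (-0.495 to 0.528) and the thin line is their median (0.0019). The medians are 0.309 for the markers, 0.399 for further choroid plexus genes, 0.77 for blood and -0.242 for tanycytes.

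The genes most like Ttr over the whole array were drawn from all symbols by their correlation over the 12 mice. The 10 closest by Pearson r were Tmem87a (0.912), Pgpep1l (0.903), Myo15 (0.874), Cox8b (0.852), Igf2 (0.852), N4bp2l1 (0.846), Wasf2 (0.831), Lgi1 (0.829), Kank3 (0.826) and Ptgds (0.825). Ptgds, prostaglandin D2 synthase, is a secreted protein of the meninges and choroid plexus. By deviations from group means the 10 closest were Mkl1 (0.941), Cox8b (0.928), 1500015O10Rik (0.927), Gm6297 (0.927), Mustn1 (0.92), LOC102641377 (0.917), Ticam1 (0.913), Pgpep1l (0.912), Ccdc186 (0.909) and 1700086P04Rik (0.903). Otx2 ranked 24th of all probes by the first measure, at the 99.93rd percentile, and 416th by the second. None of these genes had a slope on Ttr that passed adjustment.

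Next, the markers were compared between groups. The comparisons share samples (the WT mice serve 3 of them), so each is given by its own values. No member reached an adjusted p under 0.05 in limma in any of the 4 comparisons tested (0 of 9 probes in each). The percentage of all probes called was 0.0199% in KE versus KO and 0% in the other three. The screening criterion of the study's methods, an unadjusted p no higher than 0.05 together with a change of 2-fold or more, was met by 0 of 9 in KO versus WT (0.227% of all probes met it), in KE versus KO (1.21%) and in KE versus WT (2.74%).

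In KO versus WT, which asks for an effect of the engineered Asmt deletion at rest, on a background with low Asmt activity, Ttr differed by -0.42 on the log2 scale (SE 0.96, 95% interval -2.55 to 1.72). Folr1 was the only member with an unadjusted p under 0.05 (1 of 9, beside 5.47% of all probes). It read 6.82, 7.42 and 7.08 in the WT group and 7.87, 7.96 and 7.36 in the KO group, and the groups overlapped. Its difference was 0.62 (SE 0.21, limma adjusted p = 0.8465). The Kl values did not overlap (1 of 9 probes, beside 8.63% of all probes), although the highest WT mouse at 8.54 and the lowest KO mouse at 8.55 nearly touched, and the difference was 0.15 (SE 0.095, adjusted p = 0.8465).

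In KE versus KO, which asks for an effect of swimming in knockout mice, Ttr differed by 0.40 (SE 0.96, 95% interval -1.74 to 2.53). F5 and Folr1 were lower at an unadjusted p under 0.05 (2 of 9, beside 21.1% of all probes). F5 read 5.89, 5.86 and 5.64 in the KO group and 5.57, 5.45 and 5.40 in the KE group, without overlap. It differed by -0.33 (SE 0.14, limma adjusted p = 0.2169). Folr1 read 7.58, 7.12 and 7.02 in the KE group, which overlapped the KO group, and differed by -0.49 (SE 0.21, limma adjusted p = 0.2177). Aqp1 was higher without overlap, so 2 of 9 probes did not overlap, beside 21.5% of all probes. Aqp1 passed the detection filter only through the exercised groups, where it was high, and was not well above background in KO mouse 1. Nothing is therefore read from its lack of overlap. With slide as a block the difference of Folr1 was -0.12 and that of F5 -0.17. Without KO mouse 3, the KO array on slide 2, Folr1 passed the adjusted threshold (-0.67, limma adjusted p = 0.03831), together with 8623 probes in all.

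In exercised WT versus WT, which asks for an effect of swimming in wild-type mice, the brighter Ttr probe differed by 1.56 (SE 0.96, 95% interval -0.58 to 3.69, limma adjusted p = 0.3184). The dimmer probe had means of 3.43 and 5.56, a difference of 2.13, but 2 of the 3 WT arrays were not well above background, and with normexp background correction the difference was 0.702. Aqp1 read 5.26, 3.45 and 4.75 in the WT group and 5.50, 5.50 and 5.49 in the exercised WT group, with no overlap. It differed by 1.01.

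These 2 of 9 probes, the dimmer Ttr probe and Aqp1, had an unadjusted p under 0.05 (25.9% of all probes did) and also met the screening criterion (2.19% of all probes did). The dimmer Ttr probe passed the detection filter only through the exercised WT group and Aqp1 only through the exercised groups, where they were high, and the exercised WT values of Ttr had also led to its choice, so nothing is read from these counts. Aqp1 was the 1 probe of 9 without overlap, beside 37.5% of all probes. The screening used the p of limma, and with the methods' t-test the count of 2 was 0. Of 22 alternatives, 5 kept it at 2, and it was also 0 with normexp, with slide or replicate number as a block, with only probes well above background on all 12 arrays, and without WT mouse 2, exercised WT mouse 1 or exercised WT mouse 2. It was 1 without WT mouse 1, exercised WT mouse 3, KO mouse 3 or any KE mouse, and with scaling to the 75th percentile, no detection filter or only the groups compared. Aqp1 differed by 0.39 with slide as a block and by 0.36 with normexp.

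In KE versus WT, Ttr differed by -0.02 (SE 0.96, 95% interval -2.16 to 2.12). No member had an unadjusted p under 0.05 (0 of 9 in limma, beside 30.4% of all probes). F5 was lower without overlap (1 of 9, beside 44.1% of all probes), by -0.19 (SE 0.14). A 3-fold difference of Ttr in either direction lay within its intervals in KO versus WT and KE versus WT, so a change of that size was not detectable with 3 mice in each group.

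**Figure D5:**
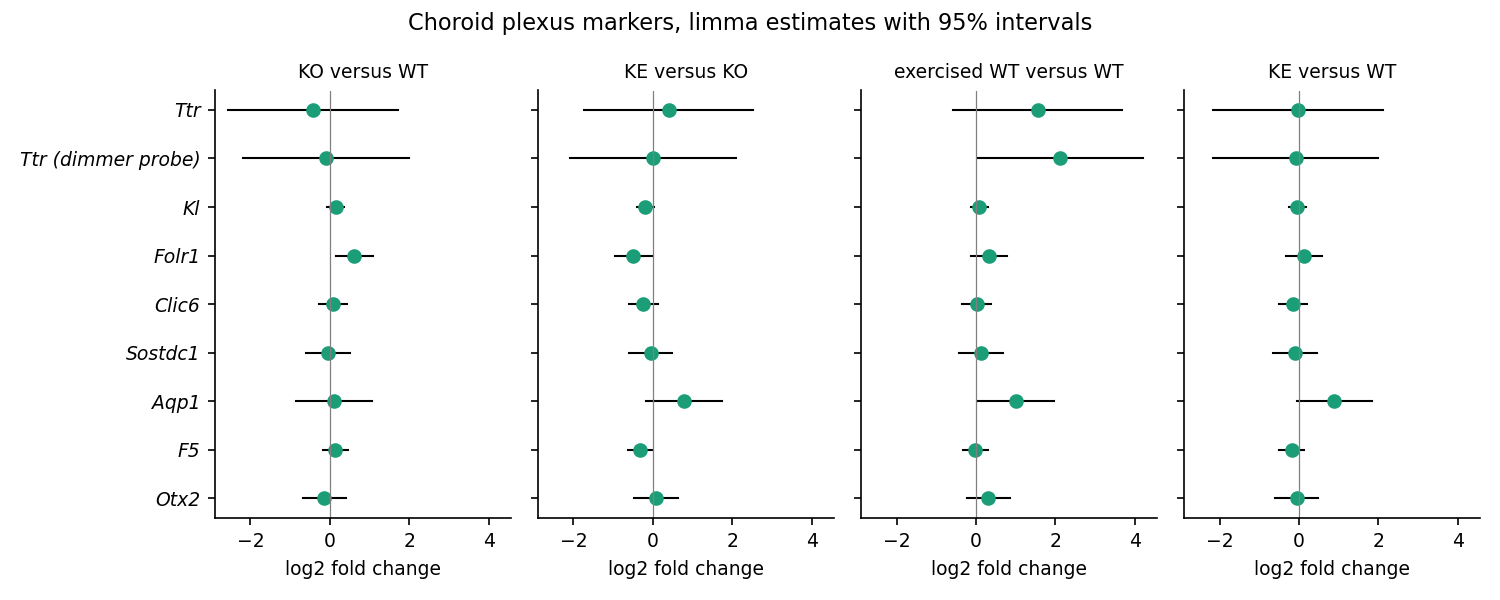
Log2 fold change (x axis) of the 9 tested probes (y axis) in 4 comparisons, with dots for the limma estimate and lines for its 95% interval. The intervals of both Ttr probes are wide, from -2.55 to 1.72 for the brighter in KO versus WT, and that of Kl is narrow. The interval of Folr1 in KO versus WT and those of the dimmer Ttr probe and Aqp1 in exercised WT versus WT lie above 0, and those of Folr1 and F5 in KE versus KO lie below 0, none past adjustment. The dimmer Ttr probe was well above background on 1 of 3 WT arrays.

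Between the exercised groups the values are a description, since this contrast led to the choice of Ttr. The brighter probe was lower in KE than in exercised WT by 1.57 on the log2 scale, with group means of 8.06 and 9.63, and the 2 groups overlapped because exercised WT mouse 3 (8.28) lay below KE mice 1 and 3. Without exercised WT mouse 2 the difference was -0.997, and without exercised WT mouse 3 it was -2.25. In KE mice the dimmer probe was below that mark on every array, and its mean in exercised WT was at least 2.6-fold higher than the level that could be detected there, with measured means of 5.56 and 3.34. All 9 probes, the 2 of Ttr among them, had a lower mean in KE than in exercised WT. The gap was 0.38 for Otx2, 0.22 for Sostdc1, 0.19 for Folr1, 0.17 each for Clic6 and F5, 0.13 for Kl and 0.12 for Aqp1. The median difference of all probes was -0.00935. The share of all probes that were lower in KE was not counted, so nothing is read from the count of 9. None of the 9 was without overlap, beside 19.6% of all probes.

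In the longer list of choroid plexus genes, none of 28 passed an adjusted p under 0.05 in any of the 4 tested comparisons. Wfdc2, a secreted protease inhibitor of many epithelia, passed the screening in KO versus WT (3.43, SE 1.33, limma adjusted p = 0.846). The medians of the 28 log2 differences were 0.0651 for KO versus WT, -0.157 for KE versus KO, -0.0755 for exercised WT versus WT and -0.167 for KE versus WT. Those of all probes were -0.0115, -0.0382, -0.0427 and -0.0674. Among the carriage genes, Stra6, the cell surface receptor for retinol-binding protein, met the criterion in KE versus KO (1.03, SE 0.396, adjusted p = 0.194), exercised WT versus WT (1.28, SE 0.396, adjusted p = 0.105) and KE versus WT (1.57, SE 0.396, adjusted p = 0.0622). Among the hypothalamic genes, Sim1, a transcription factor of the paraventricular nucleus, also met it. It differed by 2.01 in exercised WT versus WT (SE 0.695, adjusted p = 0.123). In KE versus WT it differed by 2.10 (SE 0.695, adjusted p = 0.0867). Sim1 was well above background on only 9 of the 12 arrays, so nothing is read from the size of these differences. For both genes, slide and exercise cannot be told apart in the comparisons with WT. The criterion was met by 2.19% of all probes for exercised WT against WT, 2.74% for KE against WT and 1.21% for KE against KO.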

How the data were processed

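Hypothalamic RNA of 12 male mice was hybridized to single-color Agilent arrays. The authors scanned the arrays with Feature Extraction 10.7.1.1 and deposited its spot intensity (gProcessedSignal), together with a table of quantile-normalized log2 signals that the authors made in GeneSpring. Here, control and outlier spots were left out, log2 intensities of the spots of a probe were averaged, and these averages were quantile-normalized. For the members, 180 of 180 values were within 0.01 of the authors' table. Deposited tables of the authors' comparisons (fold changes, p-values and 24 columns of sample values) were not used.

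Probes that some group had well above background in each of its mice were tested with limma 3.58.1 (R 4.3.3) over all 12 arrays, with Benjamini-Hochberg adjustment over all probes. Slopes on Ttr came from the same model with the log2 signal of the brighter Ttr probe added. Correlations were tested with 100000 permutations, or exactly on 7 arrays (scipy 1.17.1), two-sided. The permutations over the 12 arrays ignored group and slide. Intervals are 95%. The number of arrays limits the precision. Both scripts were tested on simulated data.

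The members and the gene lists were chosen with earlier results of these data known. Each gene was read at its brightest probe. Named are all members, genes of a list past the adjusted threshold or the screening criterion, otherwise its brightest genes, and the 10 genes most like Ttr by each measure. The alternatives were other scalings and background corrections, the authors' table, other detection filters, slide or replicate number as a block, only the 2 groups compared, the methods' t-test and each array left out. Promoter windows came from RefSeq. The result of 1 gene of the carriage list is not reported here.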

Additional observations from a re-analysis of the deposited data

How the results depend on the processing

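The count of members called at an adjusted p under 0.05 was 0 in each of the 4 tested comparisons under the alternatives run, except in KE versus KO without KO mouse 3, where it was 1 (Folr1), so that leaving out arrays gave 0 to 1 there. No other member's slope on Ttr passed adjustment under any alternative. The r of Ttr with the mean of the other markers was 0.596 to 0.793 with 1 array left out, and the Ttr difference of KE minus exercised WT was -2.25 to -0.997. Of 930 single values recomputed, 902 stayed within a tolerance and on their side of the threshold, 27 moved and 1 passed the threshold. The tolerance was the within-group SD estimated by limma for a group difference, which is wider than its SE, and the SE for a slope. A value could therefore change sign and still count among the 902. None of the main values had passed adjustment, and the sign of several uncalled values changed, as for Ttr in KO versus WT (-1.40 to 0.647) and the slope of Aqp1 on Ttr (-0.0896 to 0.244). The numbers of probes called over the whole array moved much more, from 0 to 8620 in KE versus KO, 0 to 6300 in exercised WT versus WT, 0 to 8160 in KE versus WT and 0 to 14 in KO versus WT, and the cause was not tested. Mice with the same replicate number did not deviate together (18 pairs, r of -0.192 to 0.245, 4 over 0.1), so the number was not taken as a pairing. With a replicate block the count of members called was 0 in all 4 comparisons. The counts of list genes with a slope were recomputed under alternatives chosen after seeing the data. With 3 mice in a group, and probes near background for Slc4a5, Aqp1 and the second Ttr probe, small changes could not be detected.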
